A study of Mus musculus with 18 samples.

Results

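The cytosolic ribosomal protein genes were taken from the deposited expression table by name. Every protein-coding gene whose symbol is Rpl or Rps followed by a digit was a member, together with Rplp0, Rplp1, Rplp2 and Rpsa. Of 113 symbols that fit the name pattern, 14 pseudogene symbols (marked -ps) and 10 Rps6k kinase symbols were left out, so that 89 of 26538 genes were members. They comprised 43 proteins of the large subunit, 31 of the small subunit, 3 of the P stalk, 11 paralogs or retrogenes, and Rps19bp1, a binding partner of Rps19 that the name rule takes in although it is no ribosomal protein. RefSeq placed the 89 genes on 19 chromosomes, with the highest number, 14, on chromosome 7.

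RNA was sequenced from 18 mouse tumours that had themselves not been ablated, and 3 tumours formed each of 6 groups. Another tumour of the animal had received cryoablation (freezing), radiofrequency ablation (heating), or cryo-thermal therapy (freezing and heating), each alone or with anti-PD-1, an antibody that blocks an inhibitory receptor on T cells (called the antibody below). Every group therefore had an ablation, and a group without one was not analysed here. Sources used here do not give the tumour line, the strain, age or sex of the mice, or when tumours were taken. Nothing in the labels says that tumours sharing a group were from different mice, and the p-values refer to the spread among these 18 samples alone, which may be technical. Each tumour is named below by its group and its replicate number.

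The ribosome is built from a large and a small subunit of RNA and protein, and cells make the proteins of both in matched amounts. The small subunit reads the mRNA, the large subunit joins amino acids, and the P stalk recruits the factors that drive elongation. Most ribosomal protein mRNAs begin with a C followed by a run of pyrimidines, the 5′ terminal oligopyrimidine (TOP) motif, through which mTORC1 and Larp1 control their translation. In tumours these mRNAs are among the most abundant of all, and in T cells activation by antigen raises ribosome production.

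Start-site sequence was examined first because it is the feature by which the family is known to be regulated as a block. RefSeq (GRCm38.p6) gave 80 promoter windows for 68 members, each from 250 bases before to 50 bases after an annotated start, and 21 members, Rpl21 among them, had no window. A pyrimidine run (only C and T) of at least 5 bases lying over the annotated start was present in 28.7% of member windows and in 10.1% of all 32851 windows. A run of at least 8 bases was present in 23.8% of member windows and in 3.86% of all. The annotated first base was C in 31.2% of member windows and in 16.3% of all. On either strand, CCGGAAG, the core of the sites that ETS factors bind, occurred in 33.8% of member windows and in 8.86% of all. CTTTCC, whose letters can lie within a pyrimidine run, occurred in 48.8% of member windows and in 26.6% of all, and TATAAA in 10% and 13.6%.

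7 starts that the results below turn on are shown 5′ to 3′ on the gene's strand, with 20 bases on each side of the boundary at the annotated start and with the pyrimidine run over the start in capitals. Rpl28 (chr7:4792945-4792984, plus strand), Rps2 (chr17:24720043-24720082, plus strand) and Rpl31 (chr1:39367831-39367870, plus strand) are 3 of the 4 members that passed a test. Rps9 (chr7:3704021-3704060, plus strand) and Rplp2 (chr7:141447631-141447670, plus strand) followed the rest of the family least, as Rps2 and Rpl28 did. Rps18 (chr17:33955646-33955685, minus strand) followed it closely, and Rps4x (chrX:102189372-102189411, minus strand) has no run over its annotated start.
Rpl28: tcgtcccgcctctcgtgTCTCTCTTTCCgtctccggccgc
Rps2: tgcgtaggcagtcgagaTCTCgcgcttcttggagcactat
Rpl31: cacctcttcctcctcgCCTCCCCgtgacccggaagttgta
Rps9: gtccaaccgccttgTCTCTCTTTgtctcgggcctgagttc
Rplp2: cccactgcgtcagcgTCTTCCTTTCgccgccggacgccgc
Rps18: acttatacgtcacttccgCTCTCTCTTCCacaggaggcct
Rps4x: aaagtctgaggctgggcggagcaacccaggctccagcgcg
The run was 11 bases long in Rpl28 and in Rps18, 10 in Rplp2, 9 in Rps9, 7 in Rpl31 and 4 in Rps2. Of the shown members that followed the family least, Rpl28, Rps9 and Rplp2 had runs of 9 bases or more, and Rps2 had 4. Rps18, which followed it closely, had 11. Whether run length goes with following the family was not tested. Such a match describes letters in a window and is not a mapped transcription start.

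The table holds FPKM values, fragment counts corrected for the length of the gene and the size of the library, so levels could be compared between genes per length. The 18 tumours had FPKM totals of 408042 to 442383, relative depths of 0.983 to 1.019, and 5995 to 7191 genes listed at 0. 3 tumours stood apart by RNA of hair follicle and keratinocyte genes, called hair follicle RNA below. The mean log2(FPKM + 1) of 15 hair follicle and keratinocyte genes was 2.62 in cryoablation plus antibody tumour 1, 2.58 in tumour 2 of that group and 3.06 in cryo-thermal plus antibody tumour 1, against 0.42 to 1.86 in the other 15 tumours. Only 4 of 10 epithelial and mammary carcinoma markers and 1 of 7 melanocyte markers passed the filter on low values, so these lists did not identify the tumour type, which the labels give only as tumour.

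Ribosomal protein mRNAs made up 18.3% to 21.7% of each tumour's summed FPKM. This share was 20.2% ± 0.278 after cryoablation, 21.2% ± 0.416 after radiofrequency ablation and 20.2% ± 0.542 after cryo-thermal therapy (SD, n = 3 each). With anti-PD-1 it was 20.7% ± 0.927, 20.2% ± 1.41 and 19.2% ± 1.029 (SD, n = 3 each). The lowest share belonged to cryo-thermal plus antibody tumour 3 and the highest to radiofrequency tumour 1, and the 3 groups with antibody had wider spreads than the groups without. Of the 100 genes with the highest mean FPKM, 59 were members, and 79 of the 89 members averaged at least 100 FPKM.

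Mean FPKM ranged from 147 to 2154 over the large subunit (median 881), from 129 to 2259 over the small subunit (median 1089), and from 983 to 2599 over the P stalk. Rplp1, which pairs with Rplp2 in the stalk, was the highest of all members at 2599 FPKM, followed by Rps3a1 of the small subunit at 2259 and Rpl41, the smallest protein of the large subunit, at 2154. The lowest subunit genes were Rps15a at 129 FPKM, Rpl21 at 147 and Rps20 at 195. FPKM divides by the annotated length, and the longest GENCODE vM21 transcripts of these 3 genes span 5179, 1856 and 3706 bases. Rpl18 and Rpl9, with 2989 and 2690 bases, stood at 485 and 876 FPKM. The part of transcript length in these levels was not tested. 

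A filter of a mean of at least 0.5 FPKM kept 87 members and 12587 genes in all. Rpl3l, a muscle paralog of Rpl3, fell below it at 0.0507 FPKM, and Rps23rg1, a retrogene of Rps23, at 0.00542. Rpl39l, a paralog of Rpl39 known from male germ cells, passed it at 0.783 FPKM and Rpl32l at 0.736. Rpl10l, the testis paralog of Rpl10, was not analysed here.

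Expressed paralogs stayed well below their parent genes. Rpl22l1, which takes the place of Rpl22 in some ribosomes, stood at 19.9% of Rpl22 in radiofrequency plus antibody tumour 2, at 39.1% in cryoablation plus antibody tumour 3, and at a median of 30.7%. Rpl36al had a median of 23.1% of Rpl36a, with a range of 18.0% to 30.05%. Rps27rt had a median of 12.8% of Rps27, Rps27l, a target of p53, 2.46%, and Rpl7l1 2.39% of Rpl7. Rpl39l never exceeded 0.136% of Rpl39. Reads of Rps27 and Rps27rt are hard to tell apart, because 90.3% of the 75-base stretches of the Rps27rt transcript also occur in another gene's transcript.

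The same sharing touches much of the family, since ribosomal proteins have many processed pseudogenes. Among 85 members with a GENCODE vM21 transcript, a median of 35.5% of such stretches also occurred in a transcript of another gene. In 26 members the share was over 50%, and in 5 it was 0. How reads with several matches were counted is not given in the sources used here, so levels of such members are uncertain. Of the excluded pseudogene symbols, Rpl34-ps1 had the highest mean, 108 FPKM.

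Each member varied little from tumour to tumour. The coefficient of variation (SD over the 18 tumours as a share of the mean) had a median of 8.27% over the 87 members and of 12.2% over all 12587 genes. Among genes of at least 100 FPKM the medians were 8.20% for 79 members and 9.93% for 520 other genes, a smaller gap than over all levels. Of the 77 subunit and stalk genes, 67 had a highest tumour less than 1.5 times their lowest, and the median ratio was 1.33. Rpl13 (5.19%), Rpl6 (5.46%) and Rps13 (5.51%) varied least. Rpl39l (56.3%) and Rpl32l (38.5%), both under 1 FPKM, varied most, followed by Rpl39 (16.8%), Rpl22l1 (15.5%) and Rps27 (15.2%).

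**Figure D1:**
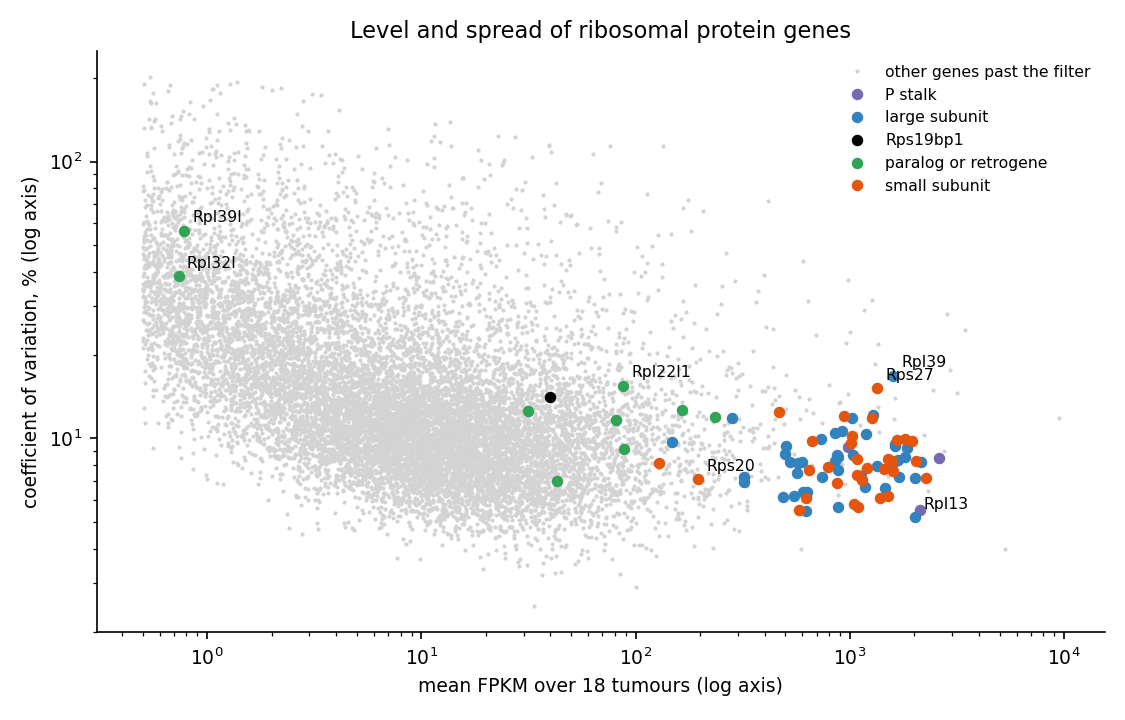
Mean FPKM over the 18 tumours (x, log axis) against the coefficient of variation in percent (y, log axis) for members by role (coloured points) and for the other genes past the filter (grey points). Most members lie above 100 FPKM with a coefficient near the median of 8.27%, and Rpl39l and Rpl32l lie far to the left at 56.3% and 38.5%.

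Members with known special roles or in use as reference genes had coefficients of variation from 5.53% (Rplp0) to 12.0% (Rps27a). Rplp0, a stalk protein and common reference gene, ranged from 1896 to 2354 FPKM with a coefficient of variation of 5.53%. Rpl13a, also a reference gene and a part of the interferon-regulated GAIT complex, ranged from 1015 to 1275 FPKM, Rpl32 from 1325 to 1814 and Rps18 from 1750 to 2302. Rpl5 (681 to 964 FPKM), Rpl11 (431 to 579) and Rpl26 (1535 to 2097), which can stabilise p53 when ribosome assembly fails, spanned similar ratios. Rps19 (526 to 761 FPKM) and Rps14 (1332 to 2009) are genes whose loss impairs red cell formation in humans. Rps6 (956 to 1156 FPKM), the substrate of the S6 kinases, had a coefficient of variation of 5.80% and Rps3, which also acts in DNA repair, of 7.91%. Rpl10a and Rpl38, linked to selective translation of some mRNAs, had coefficients of 5.63% and 9.39%. Rpsa, which doubles as a laminin receptor, had 7.07%, and Rps27a, made as a fusion with ubiquitin, 12.0%.

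What varied was mostly a shared shift of the family. Over the 79 members of at least 100 FPKM, the first principal component of log2 levels held 60.9% of the variance over the 18 tumours and the second 13.2%. The correlation of a member with the mean of the others had a median of 0.778, exceeded 0.5 for 70 members and exceeded 0.8 for 33. Rps16 (0.965) and Rps18 (0.936) were among those that followed the family most closely. Rps2 (0.148), Rplp2 (0.168), Rpl28 (0.221), Rps9 (0.268) and Rpl7a (0.376) were among those that followed it least. These values are descriptions over 18 tumours, and all genes of a tumour share its library and its scaling by total.

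Treatment groups overlapped in this shift. Each member's log2(FPKM + 1) was set against its own mean over the 18 tumours, and the median over the 87 members was taken in each tumour. This median was -0.04, -0.06 and 0.03 in cryoablation tumours 1 to 3 and 0.13, -0.08 and 0.06 in their counterparts with anti-PD-1. It was 0.11, 0.06 and 0.02 after radiofrequency ablation and 0.04, -0.15 and 0.11 after radiofrequency ablation plus antibody. It was 0.01, 0.08 and -0.05 after cryo-thermal therapy and 0.06, -0.12 and -0.19 after cryo-thermal therapy plus antibody. Tumours of 1 group thus fell on both sides of 0 in all groups but radiofrequency ablation, and the pooled SD within groups was 0.094.

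Single tumours stood out across nearly the whole family. In cryoablation plus antibody tumour 1 and in radiofrequency plus antibody tumour 3, 83 of 87 members were above their own mean. In radiofrequency plus antibody tumour 2 only 3 were, and in cryo-thermal plus antibody tumours 2 and 3 only 11 and 10. Other short mRNAs moved with some of these tumours. Over 178 genes outside the family with transcripts under 800 bases and a mean of at least 10 FPKM, the median deviation was -0.13 in radiofrequency plus antibody tumour 2, -0.11 in cryo-thermal plus antibody tumour 3, and 0.11 in cryoablation plus antibody tumour 1. It was -0.03 in cryo-thermal plus antibody tumour 2, 0.16 in tumour 1 of that group and 0.00 in radiofrequency plus antibody tumour 3. The part of transcript length in the shift was not tested. In bulk tumours, fewer cells of a type and less RNA per cell cannot be told apart.

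**Figure D2:**
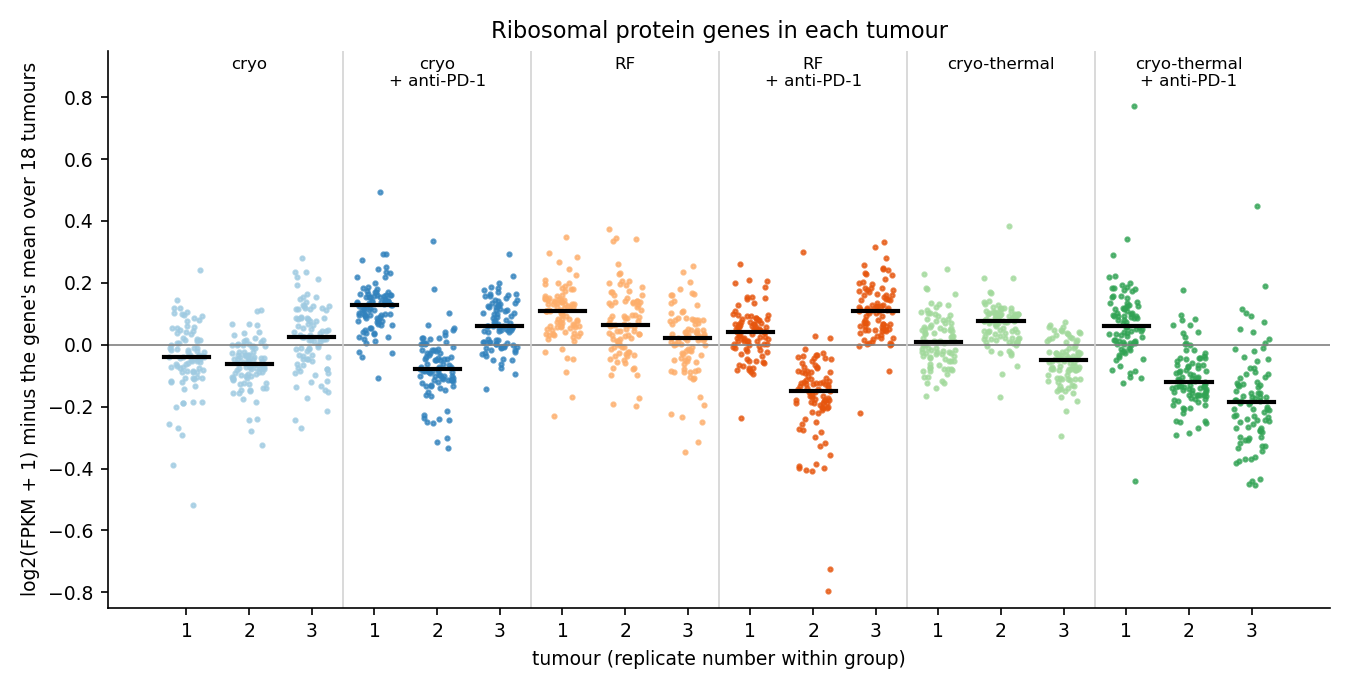
Difference of each of 87 members from its own mean over the 18 tumours (y, log2(FPKM + 1) scale), with 1 point per member, for each tumour by group and replicate number (x); black bars are medians. The medians run from -0.19 to 0.13, and replicates of a group with antibody lie on both sides of 0.

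Differences between groups were tested with limma on log2(FPKM + 1), and p-values were Benjamini-Hochberg adjusted over all 12587 genes with a threshold of 0.05. A log2 fold change is given on this scale. Between the 3 ablations without antibody, the family hardly differed. Cryo-thermal therapy against cryoablation called 1 of 87 members, beside 15.0% of all genes called in either direction and 8.01% called higher. The members' median was 0.02, with 54 positive and 33 negative, beside -0.01 over all genes, of which 48.4% were positive. With equal totals the median was -0.01 beside -0.04 over all genes, and with quantiles -0.02 beside -0.03, so that rescaling moved all genes with the members and the sign depends on it. With quantiles, 2 members were called lower and none higher, beside 8.25% of all genes called lower.

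The member called was Rpl28, a large subunit protein that animal ribosomes have and those of budding yeast lack. Its FPKM was 1102, 1264 and 1102 in the cryoablation tumours and 1312, 1409 and 1388 in the cryo-thermal tumours, without overlap. The log2 fold change was 0.25 (SE 0.076, 95% interval 0.08 to 0.41, adjusted p = 0.0417 by limma, higher in 3 of 3 tumours). Rpl28 also ranged from 1232 to 1451 FPKM in every other group but cryoablation. The call was lost without cryoablation tumours 1 or 3 (adjusted p = 0.157 and 0.134), without cryo-thermal tumours 1, 2 or 3 (0.0842, 0.135 and 0.0691), and without 1 of 5 tumours outside the comparison. These were cryoablation plus antibody tumour 3 (0.0524), radiofrequency tumours 1 and 2 (0.0519 and 0.05001) and cryo-thermal plus antibody tumours 2 and 3 (0.0580 and 0.0515). It was also lost with equal totals (0.0671), quantiles (0.247) and a replicate block (0.0567).

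Next to it, Rps19bp1, which binds Rps19 in the nucleolus and activates Sirt1, had FPKM of 29.97, 33.4 and 33.3 after cryoablation and 44.5, 46.1 and 35.9 after cryo-thermal therapy. Its log2 fold change of 0.37 did not pass (adjusted p = 0.0516 by limma), although the groups did not overlap.

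Radiofrequency ablation against cryoablation called 0 of 87 members by limma, beside 0.00794% of all genes. At an unadjusted p under 0.05, 4 members were higher, beside 7.05% of all genes higher and 15.1% in either direction. Of the members, 79 had positive and 8 negative values (41 of 43 large and 30 of 31 small subunit genes positive). Their median was 0.08, beside -0.01 over all genes, of which 47.8% were positive. The smallest p-values belonged to Rpl28 (log2 fold change 0.25, adjusted p = 0.159 by limma), Rps24 (0.19, adjusted p = 0.298) and Rps15 (0.17, adjusted p = 0.313). Cryo-thermal therapy against radiofrequency ablation likewise called 0 of 87 by limma, beside 0.00794% of all genes, and 3 members at an unadjusted p under 0.05 (1 higher, 2 lower), beside 13.6% of all genes in either direction. There Rps2 had a log2 fold change of 0.22, Rpl31 -0.22 and Rps27 -0.29 (adjusted p = 0.304, 0.328 and 0.36 by limma), with a family median of -0.06.

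With the antibody in all groups, the family's median was lower after cryo-thermal therapy, but no member passed. Against cryoablation plus antibody, limma called 0 of 87 members, beside 4.06% of all genes. At an unadjusted p under 0.05, 11 of 87 members were lower and none higher, beside 7.54% of all genes lower, 13.2% higher and 20.7% in either direction. The median was -0.11, beside 0.01 over all genes, of which 52.4% were positive. Of the members, 39 of 43 large and 30 of 31 small subunit genes were negative. The members' median remained negative in all 29 alternative settings, from -0.21 to -0.06. Without cryo-thermal plus antibody tumour 1, which was rich in hair follicle RNA, 7 members passed, all lower, beside 1.01% of all genes called lower.

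Rpl36, a large subunit protein, had the smallest p here. Its FPKM was 731, 588 and 675 in the cryoablation plus antibody tumours and 598, 536 and 527 in the cryo-thermal plus antibody tumours. The groups overlapped by 1 tumour, since cryo-thermal plus antibody tumour 1 lay above cryoablation plus antibody tumour 2. Its log2 fold change was -0.26 (adjusted p = 0.0709 by limma). Rps4x, encoded on the X chromosome, had 1522, 1498 and 1512 FPKM against 1486, 1259 and 1161, and a log2 fold change of -0.22 (adjusted p = 0.144 by limma). The spread came from the cryo-thermal group, where tumours 2 and 3 were low and tumour 1 was not. Rpl19 had -0.18 (adjusted p = 0.152 by limma).

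Cryo-thermal therapy plus antibody against radiofrequency ablation plus antibody called 0 of 87 members by limma, beside 1.31% of all genes. At an unadjusted p under 0.05, 4 were lower, beside 7.98% of all genes lower and 17.2% in either direction, and the family median was -0.07. Rps4x had the smallest p (log2 fold change -0.25, adjusted p = 0.144 by limma), followed by Rpl21 (-0.21, adjusted p = 0.22) and Rplp0 (-0.15, adjusted p = 0.253). Radiofrequency ablation plus antibody against cryoablation plus antibody called 0 of 87 by limma, beside 0% of all genes, and 1 lower at an unadjusted p under 0.05, beside 2.03% of all genes lower and 5.85% in either direction. Rpl36 (-0.19), Rps9 (-0.12) and Rps2 (-0.14) came first there, with adjusted p = 0.84, 0.862 and 0.862 by limma.

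**Figure D3:**
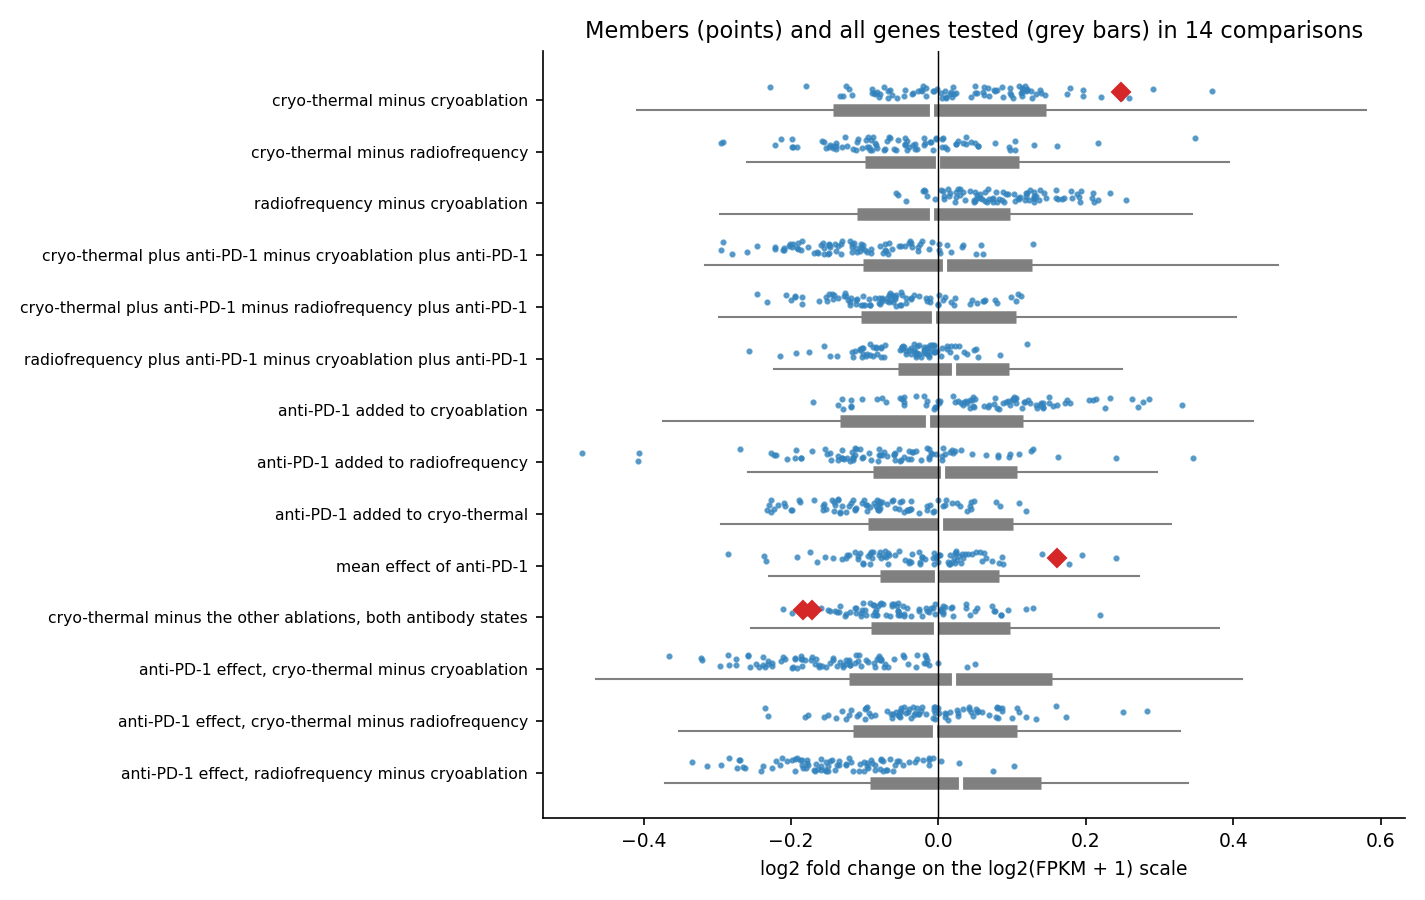
Log2 fold change (x) of 87 members (blue points) and of all genes tested (grey; thick bar 25th to 75th, thin line 5th to 95th percentile) in 14 comparisons (y), with members past an adjusted p of 0.05 as red diamonds. Only 4 diamonds appear, and most blue points lie between -0.3 and 0.3.

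Anti-PD-1 added to an ablation moved the family in no consistent direction. Added to cryoablation, it called 0 of 87 members by limma, beside 4.31% of all genes. At an unadjusted p under 0.05, 8 members were higher, beside 10.4% of all genes higher and 24.4% in either direction. The median was 0.07 with 63 members positive, beside 46.9% of all genes positive. Rps2 (log2 fold change 0.28, adjusted p = 0.0664 by limma), Rpl28 (0.23, adjusted p = 0.0955) and Rps19bp1 (0.33, adjusted p = 0.119) came first. Added to radiofrequency ablation, it called 0 of 87 by limma, beside 0.0477% of all genes, and 6 lower at an unadjusted p under 0.05, beside 4.18% of all genes lower and 11.6% in either direction. Added to cryo-thermal therapy, it called 0 of 87 by limma, beside 0.373% of all genes, and 3 lower at an unadjusted p under 0.05, beside 5.93% of all genes lower and 13.0% in either direction. The medians of these last comparisons were -0.07 and -0.08.

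With radiofrequency ablation, the smallest p-values for the antibody were those of Rps27, a small subunit protein, Rpl39, which lines the peptide exit tunnel, and Rpl31. Rpl39 had 2001, 1996 and 1849 FPKM after radiofrequency ablation and 1490, 950 and 1908 with the antibody added, a log2 fold change of -0.48 (adjusted p = 0.306 by limma). Rps27 had 1507, 1721 and 1584 FPKM and 1127, 1004 and 1559, a log2 fold change of -0.41 (adjusted p = 0.269 by limma). For both genes, radiofrequency plus antibody tumour 3 lay within the range of the group without antibody while tumours 1 and 2 lay below it. Rpl31 had -0.22 (adjusted p = 0.366 by limma). With cryo-thermal therapy, Rps4x (-0.23), Rpl21 (-0.20) and Rpl10 (-0.21), whose product completes the large subunit, came first, with adjusted p = 0.247, 0.333 and 0.352 by limma.

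Whether the antibody acted differently by ablation was tested as an interaction. The effect with cryo-thermal therapy minus that with cryoablation called 0 of 87 members by limma, beside 0.167% of all genes, and 2 lower at an unadjusted p under 0.05, beside 5.19% of all genes lower and 13.4% in either direction. Its median over members was -0.14, with 85 of 87 negative, beside 0.02 over all genes, of which 54.1% were positive. The effect with radiofrequency ablation minus that with cryoablation called 0 of 87 by limma, beside 0% of all genes, and 3 lower at an unadjusted p under 0.05, beside 2.73% of all genes lower and 7.60% in either direction. Its median was -0.14, with 83 negative, beside 0.03 over all genes, of which 56.8% were positive. Members shifted largely together within a tumour, so these sign counts are not counts of separate changes. These 2 comparisons share the 6 cryoablation tumours, with and without antibody. In both, the median stayed negative in all 28 alternatives. The effect with cryo-thermal therapy minus that with radiofrequency ablation called 0 of 87 by limma, beside 0% of all genes, and 0 at an unadjusted p under 0.05, beside 7.23% of all genes, with a median of -0.02.

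Rpl19 had the smallest p in the first of these interactions (-0.29, adjusted p = 0.201 by limma), ahead of Rpl36 (-0.26, adjusted p = 0.32) and Rps10 (-0.26, adjusted p = 0.391). Its FPKM was 522, 510 and 530 after cryoablation, 600, 537 and 605 with the antibody, 566, 594 and 526 after cryo-thermal therapy, and 552, 497 and 492 with the antibody. Rpl19 was thus higher with the antibody in all 3 cryoablation tumours, while the cryo-thermal groups overlapped. Rpl36 (-0.28), Rpl28 (-0.27) and Rps10 (-0.26) came first in the interaction of radiofrequency ablation and cryoablation, with adjusted p = 0.646, 0.646 and 0.657 by limma. Rpl19 (-0.15), Rpsa (-0.18) and Rps19bp1 (-0.23) came first in the last one, with adjusted p = 0.817, 0.843 and 0.852 by limma.

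Averaged over the 3 ablations, anti-PD-1 called 1 of 87 members, Rps2, which was higher, beside 10.0% of all genes in either direction and 5.28% higher. The family median was -0.02 (34 positive, 53 negative), beside 49.5% of all genes positive. Rescaling moved the calls, from 1 higher and 0 lower to 1 higher and 5 lower with equal totals, 1 and 3 with equal totals of the genes outside the family, and 3 and 7 with quantiles. The shares of all genes called lower under these scalings were 3.07%, 3.73% and 5.53%. Rps2, a protein at the mRNA entry of the small subunit, had 1584, 1622 and 1696 FPKM after cryoablation and 2205, 1721 and 2048 with the antibody added. It had 1693, 1568 and 1572 FPKM after radiofrequency ablation and 1918, 1694 and 1796 with the antibody, and 1888, 1958 and 1772 after cryo-thermal therapy and 1914, 1921 and 1950 with it. The antibody groups lay above their counterparts after cryoablation and after radiofrequency ablation, in each case by a narrow margin at the nearest tumours, and overlapped after cryo-thermal therapy.

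The mean log2 fold change of Rps2 was 0.16 (SE 0.048, 95% interval 0.06 to 0.26, adjusted p = 0.0478 by limma). Its reads are uncertain, since 64.4% of its 75-base stretches occur in other genes' transcripts. The call held without cryoablation plus antibody tumour 2, radiofrequency tumour 1 or radiofrequency plus antibody tumour 2, and was lost without any of the other 15 tumours, with adjusted p-values for Rps2 from 0.0526 (without cryo-thermal tumour 2) to 0.102 (without cryo-thermal tumour 3). Without the 3 tumours rich in hair follicle RNA it was 0.0655, and with the erythroid level as a covariate 0.217. Rps27 (-0.24, adjusted p = 0.065 by limma), Rpl39 (-0.28, adjusted p = 0.083), Rps19bp1 (0.19, adjusted p = 0.0851) and Rpl22l1 (-0.23, adjusted p = 0.153) did not pass. Rpl22l1 was lowest in radiofrequency plus antibody tumour 2, at 49.2 FPKM, and lay between 71.2 and 106 in the other 17.

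Both cryo-thermal groups together, set against the 4 groups of the other ablations, called 2 of 87 members, Rpl21 and Rpl31, both lower, beside 7.29% of all genes lower and 17.8% in either direction. The family median was -0.05, with 24 positive and 63 negative, beside 49.2% of all genes positive. Rpl21, a large subunit protein, had 156, 150 and 167 FPKM in cryoablation tumours, 167, 167 and 151 after radiofrequency ablation and 144, 151 and 139 after cryo-thermal therapy. With the antibody it had 148, 138 and 151, then 154, 135 and 149, and then 145, 123 and 113. The lowest values were those of cryo-thermal plus antibody tumours 2 and 3, and the other cryo-thermal tumours overlapped with the rest. Its log2 fold change was -0.17 (SE 0.051, 95% interval -0.28 to -0.06, adjusted p = 0.0327 by limma).

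Rpl31, which lies beside the exit tunnel, had 900, 891 and 1001 FPKM in cryoablation tumours, 976, 958 and 937 after radiofrequency ablation and 772, 856 and 837 after cryo-thermal therapy. With the antibody it had 874, 841 and 834, then 834, 748 and 888, and then 872, 715 and 659. All 3 cryo-thermal tumours without antibody lay below the 6 tumours of the other ablations without antibody, and the groups with antibody overlapped. Its log2 fold change was -0.18 (SE 0.057, 95% interval -0.30 to -0.06, adjusted p = 0.0368 by limma).

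Leaving out 1 tumour ended the call of Rpl21 in 7 cases and that of Rpl31 in 10. For Rpl21 these were cryoablation tumour 3 (adjusted p = 0.0528), cryoablation plus antibody tumour 3 (0.0547), radiofrequency tumour 1 (0.0511), cryo-thermal tumours 1 and 3 (0.0779 and 0.0563) and cryo-thermal plus antibody tumours 2 and 3 (0.0855 and 0.104), all by limma. For Rpl31 they were cryoablation tumour 3 (0.0580), cryoablation plus antibody tumours 2 and 3 (0.0509 each), radiofrequency tumour 1 (0.0552), radiofrequency plus antibody tumours 1 and 3 (0.0504 and 0.0521), cryo-thermal tumours 1 and 2 (0.117 and 0.0571) and cryo-thermal plus antibody tumours 2 and 3 (0.0960 and 0.116). Without cryo-thermal plus antibody tumour 1, 12 members passed this comparison, all lower, beside 6.08% of all genes called lower. Without radiofrequency plus antibody tumour 2, 5 did, all lower, beside 5.67%.

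**Figure D4:**
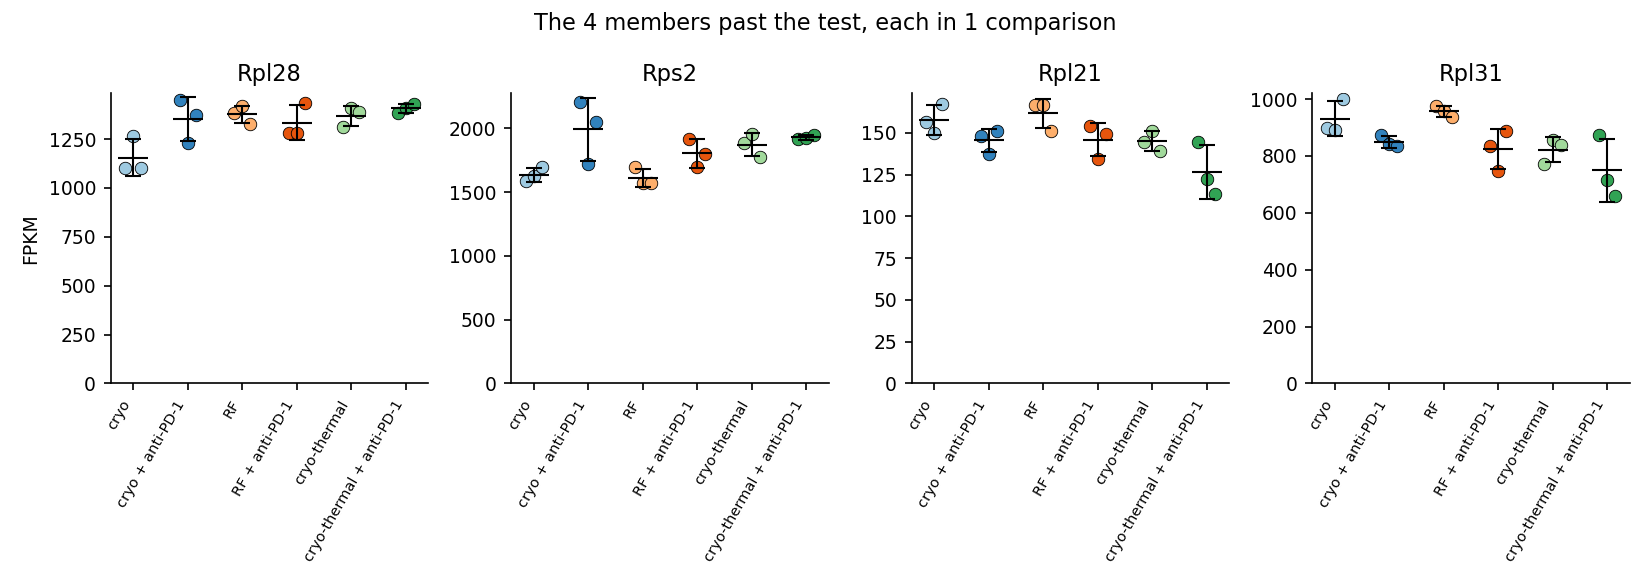
FPKM (y, from 0) of Rpl28, Rps2, Rpl21 and Rpl31 in each tumour (points, 3 per group) with group mean and SD (bars) for the 6 groups (x). Rpl28 is lowest in the cryoablation group (1102 to 1264), and the lowest Rpl21 and Rpl31 values are in cryo-thermal plus antibody tumour 3 (113 and 659).

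A test for any difference among the 6 groups called 0 of 87 members by limma, beside 18.0% of all genes, and 7 at an unadjusted p under 0.05, beside 35.7% of all genes. Rps2 (adjusted p = 0.0559) and Rpl21 (0.0578) came closest. The intervals describe differences on the log2(FPKM + 1) scale under the deposited scaling and the spread among these samples. They are not adjusted for the number of genes. For low genes such as Rpl39l and Rpl32l, this scale understates a fold change. In each of the 14 comparisons the 95% interval of all 87 members lay within a log2 fold change of 1 in either direction. It lay within 0.5 for 80 to 86 members in the 11 comparisons of groups or group means, and for 62 to 77 in the 3 interactions.

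Other genes of the translation machinery were taken from lists chosen with earlier results known. Ribosome biogenesis factors process ribosomal RNA and assemble the subunits in the nucleolus, and 53 of 54 listed genes passed the filter. Averaged over the ablations, anti-PD-1 raised 31 of 53 and lowered none, with a median log2 fold change of 0.20, beside 1 of 87 ribosomal proteins and 5.28% of all genes called higher. Added to cryoablation, it raised 11 of 53 and lowered none, beside 1.79% of all genes called higher. Cryo-thermal therapy against cryoablation also raised 11 and lowered none, beside 8.01%. Set against the other ablations, it raised 10 and lowered none, beside 10.5% called higher and 17.8% in either direction.

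Summed over the list, biogenesis genes reached 1830 to 2027 FPKM after cryoablation and 2216 to 2294 with the antibody, without overlap. They reached 1817 to 2185 FPKM after radiofrequency ablation and 2290 to 2467 with the antibody, also without overlap, and 1983 to 2338 and 2317 to 2460 in the cryo-thermal groups, which overlapped. Tcof1, a scaffold of ribosomal RNA transcription, had 30.2, 32.2 and 30.7 FPKM after cryoablation and 41.8, 38.2 and 41.8 with the antibody. It had 33.8, 33.5 and 28.4 FPKM after radiofrequency ablation and 40.4, 48.6 and 44.6 with the antibody, and 38.9, 41.7 and 35.9 after cryo-thermal therapy and 41.0, 46.9 and 49.97 with it. The antibody groups lay above their counterparts except in the cryo-thermal groups, where 1 tumour overlapped. Its mean log2 fold change was 0.36 (SE 0.0515, adjusted p = 0.00362 by limma).

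Rrp9 of the U3 particle (0.38, adjusted p = 0.00362 by limma), Nolc1 (0.30, adjusted p = 0.00434) and the helicase Ddx21 (0.31, adjusted p = 0.00434) also rose with the antibody. Leaving out 1 tumour left 22 to 34 biogenesis genes called for the mean effect, and leaving out the 3 tumours rich in hair follicle RNA left 11. The smaller counts also moved when single tumours were left out. With the antibody added to cryoablation, 0 were called without cryoablation tumours 1 or 3 or without cryoablation plus antibody tumour 1, 4 without cryoablation tumour 2, and 3 and 1 without cryoablation plus antibody tumours 2 and 3. For cryo-thermal therapy against cryoablation, 2, 4 and 5 were called without cryoablation tumours 1, 2 and 3, and 3 and 1 without cryo-thermal tumours 1 and 2. With the erythroid level as a covariate, 0 were called in each of these 3 comparisons, beside 0.0318% (mean effect), 0.00794% (antibody with cryoablation) and 0% (cryo-thermal therapy against cryoablation) of all genes. In the comparisons with cryoablation alone, the erythroid level did not overlap between the groups (values below). There this covariate cannot separate cell makeup from treatment.

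Other lists gave fewer calls than the biogenesis list. Of 23 elongation factors and mRNA partners of the TOP system, anti-PD-1 raised 5 on average, among them the poly(A)-binding protein Pabpc1 (log2 fold change 0.24, adjusted p = 0.00571 by limma), Eef1g (0.23, adjusted p = 0.0172) and Ybx1 (0.15, adjusted p = 0.0362). Of 28 initiation factors it raised 5, among them Eif3b (0.22, adjusted p = 0.00564 by limma) and Eif5a (0.23, adjusted p = 0.0174). Of 15 RNA polymerase I genes it raised 1, Polr1g (0.20, adjusted p = 0.0117 by limma). Of 78 mitochondrial ribosomal proteins it raised 6, led by Mrps18b (0.25, adjusted p = 0.00376 by limma) and Mrps34 (0.24, adjusted p = 0.00811). It lowered none in these 4 lists. Beside them, 5.28% of all genes were called higher, and the counts of 1 of 15 and 6 of 78 are near that share.

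**Figure D5:**
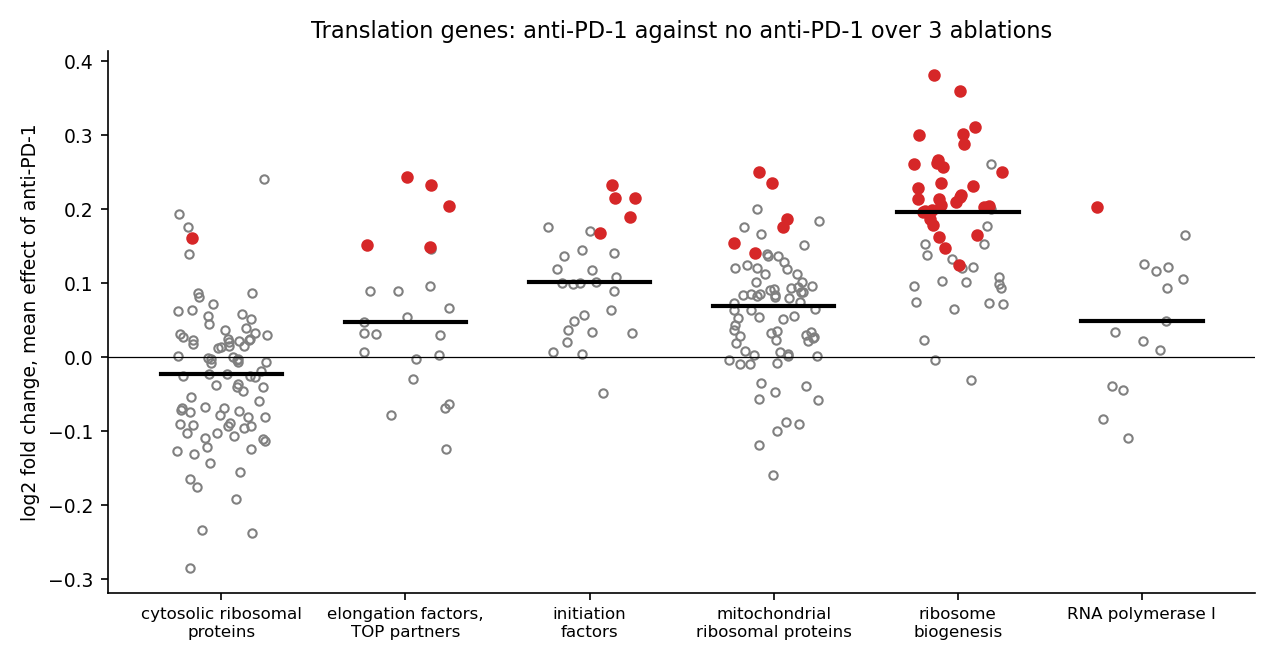
Log2 fold change of the mean anti-PD-1 effect (y) for each gene of 6 lists (x), with genes past an adjusted p of 0.05 filled red, others as open grey circles, and medians as black bars. The ribosome biogenesis median is 0.20 with 31 of 53 genes filled, and that of the ribosomal proteins is -0.02 with 1 of 87 filled.

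Regulators of ribosomal protein synthesis moved singly. Ddit4, an inhibitor of mTORC1, fell by 0.75 on the log2 scale with the antibody on average (adjusted p = 0.00868 by limma). Its FPKM was 57.3, 84.8 and 59.2 after cryoablation and 36.4, 33.5 and 40.9 with the antibody, and 53.3, 84.9 and 73.2 after radiofrequency ablation and 29.7, 33.8 and 49.1 with it. Both of these pairs of groups were apart. After cryo-thermal therapy the values were 28.4, 40.8 and 63.7, and with the antibody 32.5, 27.3 and 26.4, which overlapped. Atf4, a transcription factor of the amino acid response (0.31, adjusted p = 0.0119 by limma), Larp1 (0.18, adjusted p = 0.0270) and Eif4ebp1 (0.17, adjusted p = 0.0475) rose. In all, 3 of 23 regulators rose and 1 fell, beside 10.0% of all genes in either direction. Cryo-thermal therapy against cryoablation raised Sesn2 (log2 fold change 1.10), which restrains mTORC1, Atf4 (0.53) and Eif4ebp1 (0.40), with adjusted p = 0.00913, 0.00922 and 0.0117 by limma, and lowered none of the 23. Among all genes, 15.0% were called in either direction and 8.01% higher. The count of 3 of 23 is small and is not read as an excess over these shares.

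Cell makeup differed along with the same comparisons. Erythroid markers (9 genes, 6 past the filter) summed to 560 to 777 FPKM after cryoablation and to 53.0 to 105 with the antibody. They summed to 37.0 to 995 FPKM after radiofrequency ablation, 46.0 to 95.5 with the antibody, 23.6 to 211 after cryo-thermal therapy and 81.3 to 318 with the antibody. Cryo-thermal therapy against cryoablation lowered 6 of 6, and the antibody added to cryoablation 4 of 6, beside 6.96% and 2.53% of all genes called lower. T cell markers (11 genes, 9 past the filter) summed to 2.65 to 3.70 FPKM after cryoablation and 6.17 to 25.6 with the antibody. They summed to 13.9 to 43.7 FPKM after cryo-thermal therapy and 40.9 to 45.0 with the antibody added to it. Neutrophil (138 to 303 and 40.1 to 96.7 FPKM), fibroblast (1642 to 2045 and 1127 to 1388) and skeletal muscle sums (21.2 to 28.2 and 66.3 to 83.3) also separated cryoablation from cryoablation plus antibody. Epithelial markers (3.76 to 4.39 and 5.65 to 6.40 FPKM) and the leukocyte gene Ptprc (5.00 to 6.01 and 6.94 to 10.2) did so too. Hair follicle and keratinocyte sums (39.7 to 116.07 and 116.19 to 229.6 FPKM) were apart by a narrow margin. Macrophage, endothelial, B cell and melanocyte sums overlapped there. Cryo-thermal therapy raised 9 of 9 T cell markers against cryoablation, beside 8.01% of all genes called higher. Anti-PD-1 on average raised 2 of 9 T cell markers and 7 of 11 skeletal muscle markers, beside 5.28% of all genes called higher. Cell makeup in the calls of Rpl28, Rps2, Rpl21 and Rpl31 was examined in 2 ways. One left out the 3 tumours rich in hair follicle RNA, and the other added the erythroid level as a covariate. With the covariate, none of the 4 passed (adjusted p = 0.488, 0.217, 0.0742 and 0.0987 by limma). This level, the mean log2(FPKM + 1) of the 9 genes, was 3.62 to 4.02 in cryoablation tumours. It was 1.57 to 2.07 with the antibody added and 1.19 to 2.74 after cryo-thermal therapy, without overlap with cryoablation. In comparisons with cryoablation alone the covariate therefore cannot separate cell makeup from treatment. The share of all genes called also fell with this covariate, to 0% in the comparison of Rpl28, 0.0318% in that of Rps2 and 9.89% in that of Rpl21 and Rpl31.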

How the data were processed

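The authors deposited 1 table of FPKM values per gene for 18 mouse tumours. The submitters' processing notes name HTSeq 0.11.2, and the aligner, build, annotation and filters are not given in the sources used here. RNA came from TRIzol and a column with DNase, and libraries from a VAHTS Universal V6 kit, per the labels. The members and the gene lists were chosen with earlier results of these data known. Genes averaging under 0.5 FPKM were dropped, and log2(FPKM + 1) was fitted with limma 3.58.1 (trend) in R 4.3.3 on 6 group means from all 18 tumours, with adjustment over 12587 genes. This scale understates the change of low genes. The fit was tested on simulated data. FPKM steps gave relative depth: 98.6% of 35346 low values (up to 10 fragments) were whole within 0.05 fragments. No batch is labelled. Per comparison, the text names members that passed without overlap, or else the 3 with the smallest p. In addition it names members with known roles, the extremes in level and spread, and up to 4 called genes a list. Members that passed with overlap (Rps2, Rpl21, Rpl31) and other members outside this rule were named after their values were seen. Alternatives varied pseudocount, filter, scaling, weights, covariates, block and tumours. Some genes are not reported here.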

Additional observations from a re-analysis of the deposited data

How the results depend on the processing

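Depth is known only relatively, and FPKM cannot separate a gene's change from a change of the total. No called value turned to the opposite direction in the 28 or 29 alternatives per comparison, and values of named members that did not pass gained a call 24 times. The 4 member calls held in 12 (Rpl28) of 29 and in 10 (Rps2), 18 (Rpl21) and 16 (Rpl31) of 28 alternatives. They were counted as lost in 17, 18, 9 and 12, and the remainder for Rpl21 was counted as neither. A covariate for the erythroid level, or no filter on low values, left 0 members called for cryo-thermal therapy minus cryoablation, for the mean antibody effect and for cryo-thermal therapy minus the other ablations, against 1, 1 and 2. With the covariate, 0%, 0.0318% and 9.89% of all genes were called. Since the erythroid level did not overlap between cryoablation and the groups set against it here, the covariate cannot separate cell makeup from treatment in those comparisons. By the same covariate the biogenesis counts for those first 2 comparisons and for the antibody added to cryoablation were 0, 0 and 0. Without the filter they were 5 for cryo-thermal therapy minus cryoablation and 1 for the antibody added to cryoablation. A replicate block, or a fit of only the 2 groups compared, left 0 members for cryo-thermal therapy minus cryoablation, and the second left 3 biogenesis genes.

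The labels do not say whether same-numbered tumours share an animal or a day, and no pairing was used. Correlations of same-numbered tumours of different groups ran from -0.467 to 0.591, with 13 of 45 over 0.1. Those of different-numbered tumours ran from -0.579 to 0.495, and 7 of 18 tumours correlated best with their own number. These correlations cannot exclude a shared animal or day. Apart from Rpl28, the replicate block ended no member's call.

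Scaling to equal totals gave 1 member for cryo-thermal plus antibody minus cryoablation plus antibody, 6 for the mean antibody effect (1 higher, 5 lower), 7 lower for cryo-thermal therapy minus the other ablations, and 6 for any difference. It gave 7 biogenesis genes in each of the 2 comparisons with cryoablation alone. Scaling to the total of the genes outside the family gave 1, 4 (1 higher, 3 lower), 11 lower and 4 in those comparisons of members. Quantile normalization gave 2, 10 (3 higher, 7 lower), 14 (1 higher, 13 lower) and 6, and 2 lower in place of 1 higher for cryo-thermal therapy minus cryoablation. It also brought the medians of the interactions of cryo-thermal and of radiofrequency ablation with cryoablation to -0.0357 and -0.03233. The 7, 11 and 13 lower members of these scalings stood beside 5.72%, 8.53% and 10.6% of all genes called lower. These scalings moved the median of all genes by at most 0.0356.

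Without the 3 tumours rich in hair follicle RNA, 0 members were called for the mean antibody effect, 11 lower for cryo-thermal therapy minus the other ablations (5.66% of all genes lower) and 4 for any difference. The medians were then -0.2128 for cryo-thermal minus cryoablation with antibody and -0.2471 for their interaction. Biogenesis genes numbered 11 for the mean effect and 0 for the antibody added to cryoablation.

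Array weights did not converge and called far more of all genes too, from 4.54% to 49.0% in the comparisons given here and 71.9% for any difference. They called 20 members for cryo-thermal therapy minus cryoablation, 1 and 1 for the comparisons with radiofrequency ablation, 37 and 9 for cryo-thermal therapy minus cryoablation and minus radiofrequency ablation with antibody, and 9 and 59 for the antibody added to cryoablation and to cryo-thermal therapy. They called 20 for its mean effect, 29 for cryo-thermal therapy minus the other ablations, 31 for the interaction of cryo-thermal therapy and cryoablation and 68 for any difference, and 20 and 32 biogenesis genes for the antibody added to cryoablation and for cryo-thermal therapy minus cryoablation.

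Leaving out 1 tumour at a time gave 0 to 2 members for cryo-thermal therapy minus cryoablation, 0 to 7 and 0 to 1 for cryo-thermal therapy minus cryoablation and minus radiofrequency ablation with antibody, 0 to 2 for the antibody added to cryoablation, 0 to 5 for its mean effect, 0 to 12 for cryo-thermal therapy minus the other ablations and 0 to 4 for any difference. It gave 22 to 34, 0 to 14 and 1 to 15 biogenesis genes for the mean effect, the antibody added to cryoablation and cryo-thermal therapy minus cryoablation. The share of all genes called also changed with the setting. Where no such share stands beside a count in this section, the count does not set the members or biogenesis genes apart from all genes.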
